A study of Homo sapiens with 16 samples.

Results

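The genes examined were 7 members of the Krüppel-like factor (KLF) family, KLF2, KLF3, KLF4, KLF5, KLF6, KLF7 and KLF9, given as a list of names among 19970 protein-coding genes. For each gene, p65 ChIP-Seq signal was read in every 200-bp bin from 50 kb upstream of the gene start to 10 kb downstream of the gene end on GRCh38, which gave 3141 of the 15155200 bins of chromosomes 1 to 22 and X. The series holds 16 libraries of HT29 and SW480 cells, which are human colorectal adenocarcinoma lines. Each line was used as mock control cells (mock) and as cells made to express estrogen receptor beta (ERβ). Each of these 4 groups comprised 3 p65 ChIP libraries and a single input. All cells received TNFα at 30 ng/ml for 30 min and were crosslinked with DSG and then formaldehyde, so no library of unstimulated cells was analysed, and per the study's methods the cells stood in hormone-depleted medium for a day and received no estradiol. The question of the design was whether ERβ alters the places where p65, the RELA subunit of NFκB, sits on chromatin after TNFα.

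KLF proteins are zinc-finger transcription factors that bind GC-rich and CACCC-type sequences through a shared C-terminal domain, while their N-termini recruit different partners. KLF4 and KLF5 are the best known pair in the intestine, where KLF4 marks differentiated cells of the upper crypt and the surface, and KLF5 marks the dividing cells lower in the crypt. KLF2, KLF6 and KLF7 belong with them to a branch that mostly activates transcription, KLF3 is a repressor that recruits CtBP, and KLF9 carries a Sin3A-binding repressor domain and is a hormone-responsive gene. In GENCODE the genes lie at chr19:16324826-16328685 (KLF2, plus strand), chr4:38664197-38701517 (KLF3, plus), chr9:107484852-107490482 (KLF4, minus), chr13:73054976-73077541 (KLF5, plus), chr10:3775996-3785281 (KLF6, minus), chr2:207074137-207173856 (KLF7, minus) and chr9:70384604-70414657 (KLF9, minus).

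The tracks give the depth of 100-bp tag fragments over each base after scaling to 10 M tags per library, called signal here. They hold no read counts, so the depth of a library is not visible in them, and no counting interval can be given. In the 24389 bins of the genome that entered the tests, mean signal was 2.78 in HT29 mock replicate 1 and 2.41 in HT29 ERβ replicate 1 but 1.26 to 1.54 in the other HT29 libraries, 1.18 to 1.42 in the SW480 mock libraries, and 1.73, 2.85 and 2.67 in SW480 ERβ replicates 1, 2 and 3. The median over background bins was 0.31 to 0.33 in all 12. The HT29 replicate 1 libraries therefore stood apart within their groups, and the SW480 ERβ libraries stood above the SW480 mock libraries over tested bins as a whole. ERβ status in the ChIP libraries fitted the labels: the ratio of signal in ESR2 coding exons to that in ESR2 introns was 4.01 to 6.89 in HT29 ERβ and 2.33 to 2.93 in SW480 ERβ, against 1.10 to 1.34 and 1.27 to 1.57 in the mock libraries. In the inputs it was 2.11 in HT29 ERβ against 1.17 in HT29 mock, but 1.73 in SW480 ERβ against 1.54 in SW480 mock. The study's methods call the replicates biological, but the labels do not say that they came from separate cultures, so the tests measure the spread between these libraries.

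A bin was listed for a group when the mean of its 3 ChIP libraries was at least 2 and at least 4 times the input of that group. The 7 windows held 18 such bins in 10 runs of neighbouring bins, at 5 of the 7 genes, where 0.0829% of all bins and 35.7% of protein-coding genes had a listed bin in any group. HT29 mock had 11 listed bins at KLF3, KLF6 and KLF9, and over the genome 0.0404% of bins were listed in that group and 21.5% of protein-coding genes had a listed bin in their window. HT29 ERβ had 9 listed bins at the same 3 genes (0.0268% of all bins and 15.7% of genes), and 8 of these were among the 11 of HT29 mock. SW480 mock had 0 (0.00989% of all bins and 7.57% of genes). SW480 ERβ had 9 at KLF2, KLF5, KLF6 and KLF9 (0.0632% of all bins and 31.6% of genes). Taken by line, 9 bins were listed in HT29 alone, 6 in SW480 ERβ alone and 3 in both lines. This split was not counted over the genome, so it cannot be called particular to these windows. No listed bin lay in the windows of KLF4 and KLF7. With replicate 1 left out, HT29 mock had 5 listed bins and HT29 ERβ 2, and KLF3 kept 1 in HT29 mock and 0 in HT29 ERβ. SW480 ERβ rose to 14 without its replicate 1, with 1 of them at KLF3, and fell to 6 without its replicate 2. These counts describe the listing and carry no test, since a bin that entered through 1 group had to be high in that group. The same holds for the bins described one by one: they were chosen by the listing, so where a group that was listed is compared with a group that was not, the lack of overlap and the p are no independent evidence of the difference, although the adjustment runs over all tested bins.

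**Figure D1:**
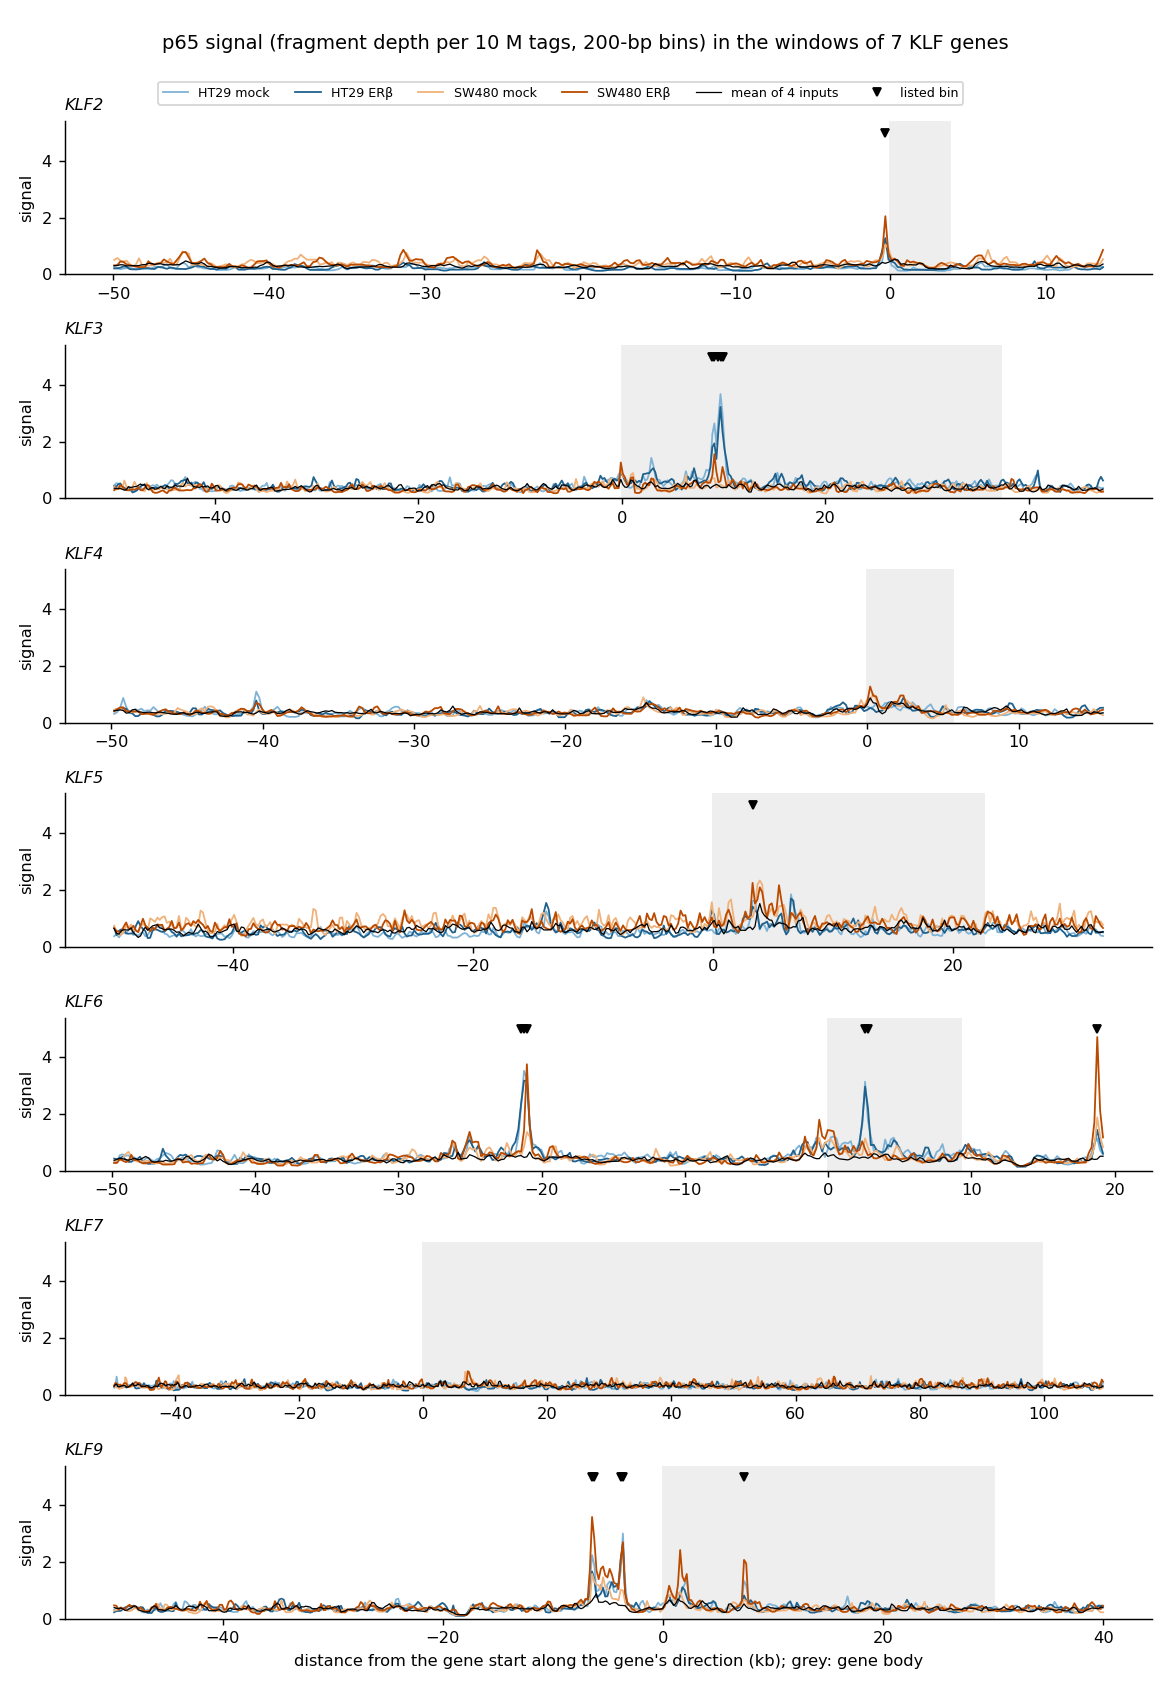
Mean p65 signal of the 3 ChIP libraries of each group (coloured lines) and the mean of the 4 inputs (black) in 200-bp bins against distance from the gene start in kb, for the 7 KLF windows on a common vertical axis, with the gene body in grey. Triangles mark listed bins: KLF6 has them upstream, inside and downstream of the gene, KLF9 upstream and inside, KLF3 and KLF5 inside only, KLF2 just upstream, and KLF4 and KLF7 have none.

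The signal at KLF genes was modest beside that at textbook NFκB targets. The highest KLF group mean was 4.71 in SW480 ERβ downstream of KLF6, and 24.4% of all bins listed in that group were higher. Group means at the highest promoter bin were 12.8 to 23.6 for TNFAIP3, an inhibitor of NFκB signalling, 15.0 to 27.5 for NFKBIA, the gene of IκBα, 14.7 to 25.2 for the apoptosis inhibitor BIRC3 and 5.33 to 11.7 for the chemokine gene CXCL8.

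Input level varied between windows and, at some genes, between lines. The median input in the KLF5 window was 0.439 in HT29 mock and 0.460 in HT29 ERβ against 0.773 in SW480 mock and 0.731 in SW480 ERβ, which puts the mean KLF5 input of SW480 at 2.49 and 2.38 times the typical level of its genome. In the KLF2 window the medians were 0.20 and 0.245 in HT29 and 0.380 and 0.310 in SW480. In the other 5 windows the 4 medians lay within 0.280 to 0.408. The part of these input differences in the ChIP signal of SW480 at KLF5 and KLF2 was not tested beyond the division by input given for each. The ERβ inputs belong to another series according to the study's data statement, and the labels name the p65 antibody and TNFα on input samples too.

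**Figure D2:**
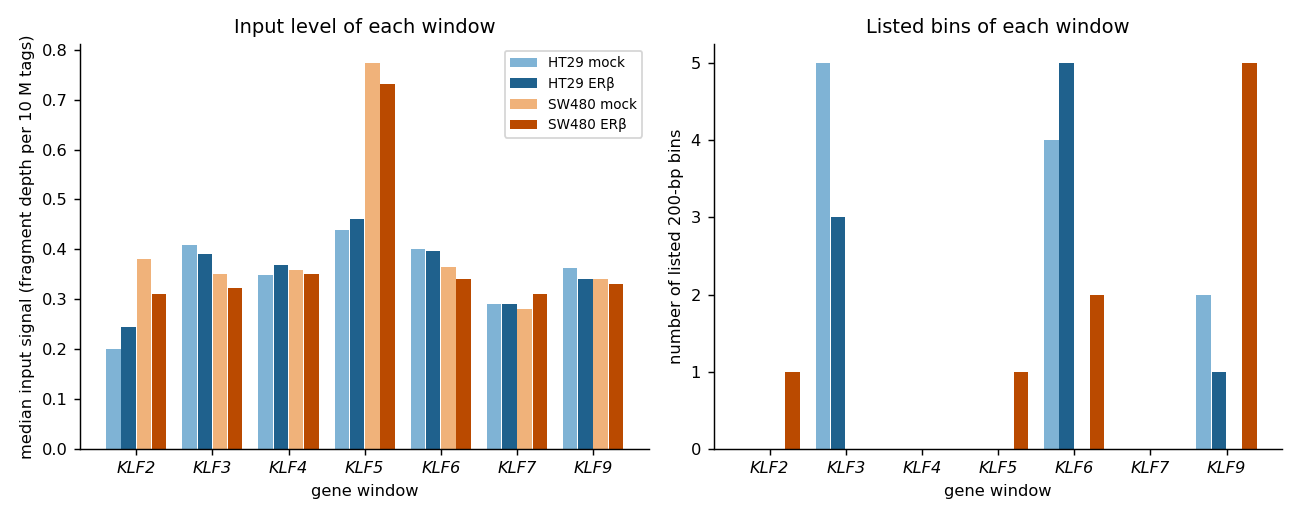
Left, median input signal in each KLF window for the 4 groups; right, number of listed 200-bp bins in each window. The KLF5 window stands out for its SW480 inputs (0.773 and 0.731), and SW480 mock has no listed bin at any of the 7 genes.

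KLF5, the factor of dividing crypt cells, had 1 listed bin and KLF4, the factor of differentiated cells, had 0. The KLF5 bin was chr13:73058201-73058400, in the gene body at 3324 bp from the gene start, counted along the gene, and at -705 bp from the nearest annotated KLF5 start site. Its SW480 ERβ libraries read 1.57, 2.35 and 2.82, a mean of 2.25 ± 0.630 (SD, n = 3) that was 4.09 times input. The SW480 mock libraries read 1.35, 0.983 and 0.80, so all 3 ERβ libraries lay above them. The HT29 mock libraries read 2.45, 1.18 and 1.19 and the HT29 ERβ libraries 1.63, 1.37 and 1.24, which overlap. On the scale of log2(signal + 1), on which every log2 difference here is given and which understates the change of low bins, SW480 ERβ exceeded SW480 mock by 0.66 ± 0.26 (SE, adjusted p = 0.0489 by limma over all tested bins). That call stands at the threshold: it was lost without SW480 mock replicate 1, 2 or 3 or SW480 ERβ replicate 2 or 3, with an adjusted p of up to 0.211, and it was 0.0141 with the replicate block. The difference between the ERβ effects of the lines was 0.74 ± 0.41 (adjusted p = 0.214), and 0.74 ± 0.28 with the block (adjusted p = 0.0298). The difference between lines was -0.32 ± 0.29 without ERβ (adjusted p = 0.407) and 0.41 ± 0.29 with it (adjusted p = 0.255). With signal divided by the local input over 100 kb, an alternative chosen after seeing the data, the first became -0.61 (adjusted p = 0.03) and the second -0.04. After scaling to an equal median over tested bins, explained with the counts of calls, the ERβ effect in SW480 was 0.15 (adjusted p = 0.778). The bin was not listed when the mean of both SW480 inputs or the input over 1 kb served as the reference, or when the grid of bins was moved by 100 bp. Without SW480 ERβ replicate 2 (mean of 2.19, under 4 times input) or replicate 3 (1.96) it was not listed either. The highest SW480 mock bin of the KLF5 window had a mean of 2.33 and was not listed, since it was under 4 times its input. In that window 102 bins had a SW480 mock mean of at least 1, against 9 in HT29 mock.

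At KLF4 the highest bin, chr9:107490201-107490400, overlapped an exon of the gene, at 182 bp from the start site. Its libraries read 0.540, 0.250 and 0.759 in HT29 mock, 0.529, 0.530 and 0.488 in HT29 ERβ, 0.962, 0.770 and 0.590 in SW480 mock and 1.18, 1.69 and 0.943 in SW480 ERβ. The inputs there were 0.773, 0.521, 1.7 and 0.480 in the same order, so every group but SW480 ERβ, at 2.65 times input, was at or below its input. Over all bins of the window the highest group means were 1.09 in HT29 mock, 0.874 in HT29 ERβ, 1.02 in SW480 mock and 1.27 in SW480 ERβ. No KLF4 bin entered the tests. The pair thus differed in that KLF5 had 3 tested bins with 1 listed and KLF4 had none, but a difference between the 2 windows was not tested, and the KLF5 window was longer (413 bins against 328) and had more input signal in SW480.

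The sequence around the KLF5 bin is shown, as for 6 further summits, as 300 bases on the strand of the gene, 5′ to 3′, to let its letters be read beside the values. Capitals mark exact matches to the κB consensus, the sequence that NFκB dimers recognise, and this stretch has none.
KLF5 summit, chr13:73058151-73058450, plus strand: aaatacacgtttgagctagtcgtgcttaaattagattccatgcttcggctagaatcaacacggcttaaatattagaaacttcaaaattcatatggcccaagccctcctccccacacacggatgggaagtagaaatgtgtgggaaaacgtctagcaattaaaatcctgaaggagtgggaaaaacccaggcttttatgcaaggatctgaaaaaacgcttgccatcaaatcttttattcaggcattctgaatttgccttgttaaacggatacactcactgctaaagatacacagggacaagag

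KLF6, a broadly expressed and growth-restraining member, had the most tested bins, 18, and 3 separate runs that behaved differently. The first lay downstream of the gene, at chr10:3766401-3766600, 18781 bp past the gene start and 13717 bp from the nearest KLF6 start site, which was the nearest start site of any protein-coding gene. The SW480 ERβ libraries read 2.88, 5.1 and 6.15 and the SW480 mock libraries 2.14, 1.36 and 2.14. The HT29 mock libraries read 1.5, 0.620 and 1.28 and the HT29 ERβ libraries 1.31, 1.3 and 1.7. Only SW480 ERβ was listed here, with a mean of 4.71 ± 1.67 (SD, n = 3) at 15.2 times input, and none of its libraries overlapped those of another group, a description since the bin was chosen through this group. SW480 ERβ exceeded SW480 mock by 0.96 ± 0.29 (SE, adjusted p = 0.0122), and the call was lost without SW480 mock replicate 2 or SW480 ERβ replicate 2 or 3 (adjusted p up to 0.114). SW480 ERβ also exceeded HT29 ERβ, by 1.19 ± 0.32 (adjusted p = 0.00138), and that call held when any library was left out. SW480 mock minus HT29 mock was 0.44 ± 0.32 (adjusted p = 0.291), and 0.81 (adjusted p = 0.00127) after scaling to an equal median, where the ERβ effect in SW480 was 0.33 (adjusted p = 0.444). The ERβ effect of SW480 minus that of HT29 was 0.74 ± 0.45 (adjusted p = 0.25), and it passed only with replicate number as a block (adjusted p = 0.0329). The neighbouring bin farther from the gene, chr10:3766201-3766400, fell just short of the list, with a SW480 ERβ mean of 2.11 at 3.82 times input.
KLF6 downstream summit, chr10:3766351-3766650, minus strand: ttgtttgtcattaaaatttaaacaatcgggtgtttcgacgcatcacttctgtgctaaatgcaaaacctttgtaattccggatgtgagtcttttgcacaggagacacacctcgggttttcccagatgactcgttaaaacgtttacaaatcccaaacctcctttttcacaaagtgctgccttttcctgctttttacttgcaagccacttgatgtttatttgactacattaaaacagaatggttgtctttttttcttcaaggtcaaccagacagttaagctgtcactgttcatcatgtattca
This stretch held no exact κB match.

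The second KLF6 run lay inside the gene, with its highest bin at chr10:3782601-3782800, at 2581 bp from the gene start and -649 bp from an alternative KLF6 start site. It was an HT29 run. The HT29 mock libraries read 5.32, 2.25 and 1.84 and the HT29 ERβ libraries 4.25, 2.33 and 2.31, while the SW480 mock libraries read 1.16, 0.871 and 1.38 and the SW480 ERβ libraries 0.968, 0.650 and 0.658. Every HT29 library lay above every SW480 library. The difference of SW480 from HT29 was -0.87 ± 0.31 in mock cells (adjusted p = 0.0216) and -1.14 ± 0.31 in ERβ cells (adjusted p = 0.00141). The first of these was lost without HT29 mock replicate 1 or SW480 mock replicate 1 or 2 (adjusted p up to 0.238), and with replicate 1 left out of both HT29 groups it was -0.51 (adjusted p = 0.116), while the second held in each of these cases. ERβ minus mock was -0.28 ± 0.22 in SW480 (adjusted p = 0.309), against the direction of most tested bins of that line. With the libraries scaled to an equal median over tested bins, the same SW480 difference was -0.66 (adjusted p = 0.0497) and was then the only KLF call of that comparison.
KLF6 internal summit, chr10:3782551-3782850, minus strand: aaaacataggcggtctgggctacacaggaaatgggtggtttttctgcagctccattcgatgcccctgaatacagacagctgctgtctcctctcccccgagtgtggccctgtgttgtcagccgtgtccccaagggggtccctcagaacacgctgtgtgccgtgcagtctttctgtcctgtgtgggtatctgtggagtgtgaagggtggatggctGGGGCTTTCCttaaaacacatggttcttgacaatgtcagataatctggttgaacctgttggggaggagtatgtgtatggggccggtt

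The third KLF6 run lay upstream, with its highest bin at chr10:3806201-3806400, -21019 bp from the gene start, overlapping ENSG00000288755, an annotated gene without a symbol. The highest bin of a run is the one with the highest mean of the 12 ChIP libraries, and the nearest protein-coding start site was that of KLF6. Its libraries read 5.52, 1.93 and 2.24 in HT29 mock, 5.73, 2.15 and 1.64 in HT29 ERβ, 1.42, 1.42 and 1.25 in SW480 mock and 2.62, 4.27 and 4.37 in SW480 ERβ. This bin was listed in 3 groups, with means of 3.23, 3.17 and 3.75, and SW480 mock stood alone at 1.36 ± 0.101 (SD, n = 3). The difference between SW480 mock and HT29 mock was not called at this bin. SW480 ERβ exceeded SW480 mock by 0.99 ± 0.28 (adjusted p = 0.00657), a call lost only without SW480 ERβ replicate 3 (adjusted p = 0.0512). After scaling to an equal median it was 0.41 (adjusted p = 0.307). The difference of the ERβ effects between lines was 1.03 ± 0.50 (adjusted p = 0.158), and 1.03 ± 0.29 with the replicate block (adjusted p = 0.00342).

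The run did not have the same shape in both lines. In the next bin away from the gene, chr10:3806401-3806600, the means were 3.52 in HT29 mock and 3.17 in HT29 ERβ, as high as in the bin before, but 0.841 in SW480 mock and 1.41 in SW480 ERβ. SW480 was lower there by a log2 difference of -1.21 ± 0.32 in mock cells (adjusted p = 0.00185) and -0.78 ± 0.32 in ERβ cells (adjusted p = 0.0407), where the second was lost without HT29 ERβ replicate 1, any SW480 mock replicate or SW480 ERβ replicate 1 or 3 (adjusted p up to 0.196). In the bin after it, chr10:3806601-3806800, the HT29 means of 2.30 and 2.38 stood against 0.558 and 0.672 in SW480, with differences of -0.94 ± 0.28 and -0.90 ± 0.28 (adjusted p = 0.00569 and 0.00564), lost without HT29 mock replicate 1 (adjusted p = 0.18) and without HT29 ERβ replicate 1 (adjusted p = 0.111) respectively. In this last bin the HT29 mock libraries read 4.46, 1.04 and 1.40 and the HT29 ERβ libraries 4.37, 1.35 and 1.42, so replicate 1 carried both means, which were 1.22 and 1.39 without it. As listed, HT29 covered 3 bins and SW480 ERβ 1. Without replicate 1 of each group HT29 mock was listed at the first 2 bins (means of 2.08 and 2.42), HT29 ERβ at the second alone (2.38, against 1.9 in the first) and SW480 ERβ at the first alone (4.32).
KLF6 upstream summit, chr10:3806151-3806450, minus strand: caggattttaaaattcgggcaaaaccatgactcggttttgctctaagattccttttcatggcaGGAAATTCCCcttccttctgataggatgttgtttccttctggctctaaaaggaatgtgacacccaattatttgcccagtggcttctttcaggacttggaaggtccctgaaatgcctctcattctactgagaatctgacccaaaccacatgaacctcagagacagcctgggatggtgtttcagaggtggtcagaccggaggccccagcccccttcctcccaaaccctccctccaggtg
The capitals are a κB match at -82 bases from the centre of the printed stretch, within the summit bin and on the side of the neighbouring bins in which SW480 was lower.

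**Figure D3:**
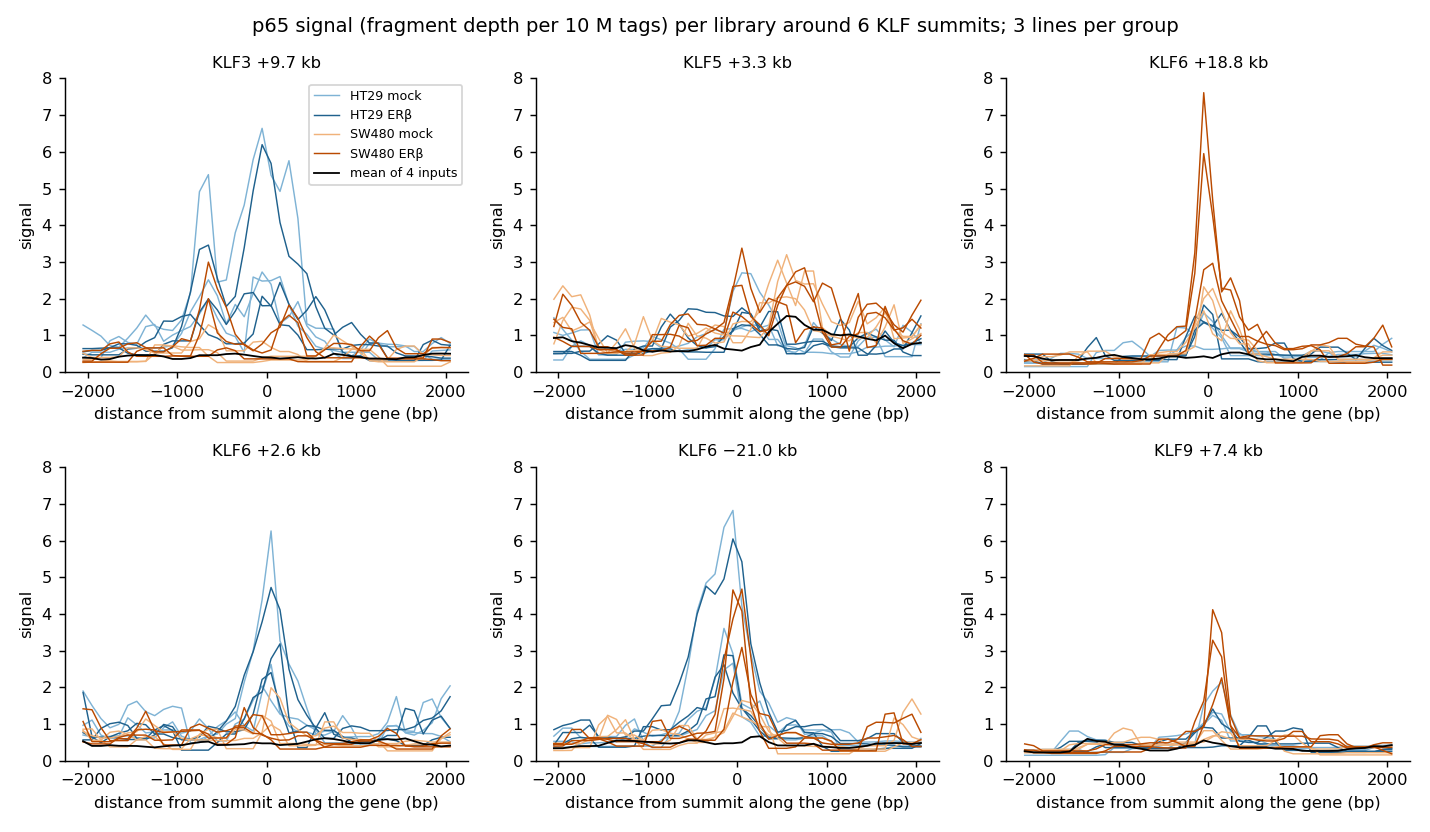
Signal of each library (3 lines per group) in 100-bp steps against distance from the summit in bp, along the direction of the gene, with the mean of the 4 inputs in black. The KLF3 and internal KLF6 summits are highest in HT29, with a smaller rise of SW480 ERβ replicates 2 and 3 to 2.00 and 3.00 at -650 bp from the KLF3 summit, the downstream KLF6 and intronic KLF9 summits are highest in SW480 ERβ, the upstream KLF6 summit is wider in HT29, above all in its replicate 1 libraries, than in SW480 ERβ, and at KLF5 all 3 SW480 mock libraries are higher at 550 bp past the summit (2.42, 3.20 and 2.05) than at it, with SW480 inputs of 2.40 and 1.98 there.

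KLF2, known from endothelial and lymphocyte quiescence, had 1 listed bin, chr19:16324401-16324600, at -326 bp from its start site and within the divergent transcript KLF2-DT. The SW480 ERβ libraries read 1.5, 2.61 and 2.05 and the SW480 mock libraries 0.948, 1.55 and 0.674, so the groups overlapped in that the highest mock library lay above the lowest ERβ library. The HT29 mock libraries read 1.86, 1.00 and 0.638 and the HT29 ERβ libraries 1.98, 1.12 and 0.735. The bin barely passed the listing limits, with a SW480 ERβ mean of 2.05 ± 0.552 (SD, n = 3) at 4.10 times input, and 96.7% of bins listed in that group were higher. It was not listed without SW480 ERβ replicate 2 (mean of 1.77) or when the grid of bins was moved by 100 bp. The SW480 difference was 0.58 ± 0.26 (adjusted p = 0.0816) and passed with the replicate block (adjusted p = 0.0319). It also passed after division by the local input, an alternative chosen after seeing the data (0.67, adjusted p = 0.0302). After scaling to an equal median over tested bins it was not called. SW480 minus HT29 was -0.06 ± 0.28 without ERβ (adjusted p = 0.894) and 0.44 ± 0.28 with it (adjusted p = 0.198).
KLF2 promoter summit, chr19:16324351-16324650, plus strand: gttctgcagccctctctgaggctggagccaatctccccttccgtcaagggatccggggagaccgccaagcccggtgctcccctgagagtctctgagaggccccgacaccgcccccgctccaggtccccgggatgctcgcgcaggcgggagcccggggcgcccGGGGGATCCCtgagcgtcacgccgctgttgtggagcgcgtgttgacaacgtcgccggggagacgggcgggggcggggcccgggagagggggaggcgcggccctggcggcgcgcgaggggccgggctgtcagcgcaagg
The stretch is GC-rich (75.0% G or C) and held 1 exact κB match and 6 matches to CCNCNCCC, the CACCC-type pattern that KLF proteins themselves bind, counted on both strands with overlaps.

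KLF7, studied mostly in neurons, had no bin near the limits in a window of 798 bins. Its highest bin, chr2:207082801-207083000 in the gene body, had group means of 0.542 in HT29 mock, 0.320 in HT29 ERβ, 0.395 in SW480 mock and 0.583 in SW480 ERβ, which are 1.14 to 2.01 times input. The highest group mean of any KLF7 bin was 0.828.

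KLF3, the CtBP-binding repressor, had 5 listed bins in an intron, all listed in HT29 and not in SW480 with all libraries in. They form 2 runs that are separated by a single bin, and the highest bin was chr4:38673801-38674000, at 9703 bp from the gene start and 9556 bp from the nearest KLF3 start site. Its HT29 mock libraries read 6.0, 2.49 and 2.56 and its HT29 ERβ libraries 5.94, 1.93 and 1.81. The SW480 mock libraries read 0.409, 0.310 and 0.756 and the SW480 ERβ libraries 0.360, 0.561 and 0.918. The lines did not overlap, and SW480 was at 1.14 and 1.59 times input where HT29 was at 13.6 and 6.21 times. SW480 minus HT29 was -1.58 ± 0.30 in mock cells (adjusted p = 1.4e-05) and -1.27 ± 0.30 in ERβ cells (adjusted p = 2.7e-04), and both calls held when any library was left out and with replicate 1 left out of both HT29 groups (-1.25 and -0.85). The ERβ effect at this bin was -0.20 ± 0.45 in HT29 (adjusted p = 1.00) and 0.11 ± 0.17 in SW480 (adjusted p = 0.598). In SW480, 2 other KLF3 bins were called higher with ERβ, where 28.1% of all tested bins were. They were chr4:38673401-38673600, between the runs (0.48 ± 0.18, adjusted p = 0.0379), and chr4:38674001-38674200, in this run (0.50 ± 0.20, adjusted p = 0.0498). These calls were lost in 4 and 5 of the 6 fits that left out 1 library (adjusted p up to 0.214 and 0.223). Of the 8 tested KLF3 bins, 7 were called lower in SW480 mock than in HT29 mock, where 25.0% of all tested bins were, and 2 were called lower in SW480 ERβ than in HT29 ERβ, where 10.0% were. The 8 bins are direct neighbours that count as a single place, so these counts are a description.
KLF3 intronic summit, chr4:38673751-38674050, plus strand: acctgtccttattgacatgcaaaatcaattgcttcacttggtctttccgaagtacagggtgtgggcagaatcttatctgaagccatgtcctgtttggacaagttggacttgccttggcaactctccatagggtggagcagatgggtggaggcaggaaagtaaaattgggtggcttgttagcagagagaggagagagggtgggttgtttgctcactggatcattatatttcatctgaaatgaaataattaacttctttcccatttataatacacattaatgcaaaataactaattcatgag
This summit, which had the largest difference between the mock lines among the 10, held no exact κB match.

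The other KLF3 run had its highest bin at chr4:38673201-38673400, where HT29 mock read 3.92, 1.73 and 2.30 and HT29 ERβ 3.01, 0.972 and 1.84. Here SW480 ERβ was not at background, and without its replicate 1 this bin was listed in that group, with a mean of 2.08. It read 0.517, 1.53 and 2.63 against 0.570, 0.346 and 1.22 in SW480 mock, a difference of 0.52 ± 0.24 (adjusted p = 0.0907, and 0.0376 with the replicate block). The lines differed without ERβ (-1.08 ± 0.30, adjusted p = 0.00306) and the difference with ERβ was -0.23 ± 0.30 (adjusted p = 0.568). The test of the difference between these effects gave 0.85 ± 0.42 (adjusted p = 0.172) and, with the block, 0.0124 as its adjusted p.

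KLF9, a hormone-responsive gene with a Sin3A-binding domain, had 5 listed bins in 3 runs, and 6 of its 12 tested bins were called higher in SW480 ERβ than in SW480 mock, where 28.1% of all tested bins were. Among the 6, chr9:70407001-70407200 and chr9:70407201-70407400 are direct neighbours, as are chr9:70420801-70421000 and chr9:70421001-70421200. Neighbours count as a single place, so this count is a description. After scaling to an equal median 0 KLF9 bins were called higher, as at the rest of the 7 genes, where 3.50% of all tested bins were. The run inside the gene had its highest bin at chr9:70407201-70407400, in an intron at 7357 bp from the start site. It was listed in SW480 ERβ alone, and not without replicate 2 or 3 of that group (means of 1.89 and 1.84). The SW480 ERβ libraries read 1.23, 2.46 and 2.54 and the SW480 mock libraries 0.630, 0.581 and 0.820, without overlap. The HT29 mock libraries read 1.71, 1.11 and 1.18 and the HT29 ERβ libraries 0.90, 0.366 and 1.20. The ERβ effect was 0.85 ± 0.25 in SW480 (adjusted p = 0.009) and -0.38 ± 0.28 in HT29 (adjusted p = 1.00), and the difference between these effects was 1.22 ± 0.37 (adjusted p = 0.028, and 2.8e-04 with the block). The SW480 call was lost without SW480 mock replicate 1 or 2 or SW480 ERβ replicate 2 or 3 (adjusted p up to 0.0620). The call of the difference was lost without each of those libraries and without HT29 mock replicate 1 or HT29 ERβ replicate 2 (adjusted p up to 0.141). After scaling to an equal median the SW480 effect was 0.39 and the difference 0.66, neither of them called (adjusted p = 0.307 and 0.263). The neighbouring bin deeper in the gene, chr9:70407001-70407200, was just under the listing limit, with a SW480 ERβ mean of 1.95 ± 0.375 (SD, n = 3), and differed in the same way, with a difference between the effects of 1.26 ± 0.35 (adjusted p = 0.0173, lost without HT29 ERβ replicate 2, SW480 mock replicate 1 or 3 or SW480 ERβ replicate 3, up to 0.0789).
KLF9 intronic summit, chr9:70407151-70407450, minus strand: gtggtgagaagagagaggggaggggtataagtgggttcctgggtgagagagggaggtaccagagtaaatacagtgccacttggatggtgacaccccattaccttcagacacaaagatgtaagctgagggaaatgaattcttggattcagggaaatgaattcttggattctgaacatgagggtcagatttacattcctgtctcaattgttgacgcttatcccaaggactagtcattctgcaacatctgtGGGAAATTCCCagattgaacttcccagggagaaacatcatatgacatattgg
The capitals in this stretch match the κB consensus in 2 overlapping frames, and they lie where this bin meets that neighbour.

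A further bin in the first part of KLF9, chr9:70412401-70412600 at 2157 bp from the start site, was not listed, and its ERβ effect also differed between the lines, with and without the replicate block. The HT29 mock libraries read 2.37, 0.701 and 1.06, the HT29 ERβ libraries 1.12, 0.450 and 0.741, the SW480 mock libraries 0.370, 0.370 and 0.400 and the SW480 ERβ libraries 0.728, 2.49 and 1.52. With the block the difference between the effects was 1.23 ± 0.27 (adjusted p = 2.1e-04). Without the block it was 1.23 ± 0.35 (adjusted p = 0.0201, lost without HT29 mock replicate 1, HT29 ERβ replicate 2, SW480 mock replicate 1 or 2 or SW480 ERβ replicate 2, up to 0.0932), from 0.84 ± 0.22 in SW480 (adjusted p = 0.00303) and -0.38 ± 0.28 in HT29 (adjusted p = 1.00).

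Nearby, chr9:70413001-70413200 just missed the list with a SW480 ERβ mean of 2.43 at 3.36 times input.

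The 2 upstream KLF9 runs were listed in both lines, the nearer one in 3 groups and the farther one in HT29 mock and SW480 ERβ. At chr9:70418201-70418400, -3643 bp from the start site, HT29 mock read 3.46, 2.19 and 3.37, HT29 ERβ 3.87, 2.65 and 1.42, SW480 mock 0.922, 0.994 and 1.10 and SW480 ERβ 2.14, 3.83 and 2.12. As at the upstream KLF6 run, 3 groups were listed (HT29 ERβ not without its replicate 1, with a mean of 2.04) and SW480 mock, at 1.01 ± 0.0918 (SD, n = 3), lay below them. The ERβ effect in SW480 was 0.85 ± 0.27 (adjusted p = 0.0133, lost without SW480 mock replicate 1 or 2 or SW480 ERβ replicate 2, up to 0.120), and SW480 mock was below HT29 mock by a log2 difference of -0.98 ± 0.33 (adjusted p = 0.0143, lost without SW480 mock replicate 1 or 2, up to 0.0598). SW480 ERβ minus HT29 ERβ was 0.05 ± 0.33 (adjusted p = 0.924).

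At chr9:70421001-70421200, -6443 bp from the start site, HT29 mock read 2.72, 1.79 and 2.23, HT29 ERβ 2.22, 1.46 and 1.32, SW480 mock 1.79, 1.42 and 1.54 and SW480 ERβ 2.58, 4.11 and 4.08. HT29 mock was listed with a mean of 2.25 at 4.07 times input and was not listed without its replicate 1 (2.01), and HT29 ERβ was not listed. All 3 SW480 ERβ libraries lay above all SW480 mock libraries. The ERβ effect in SW480 was 0.81 ± 0.28 (adjusted p = 0.024) and SW480 ERβ exceeded HT29 ERβ by 0.78 ± 0.32 (adjusted p = 0.0437). The first call was lost without SW480 mock replicate 1, 2 or 3 or SW480 ERβ replicate 2 or 3 (adjusted p up to 0.119), and the second without 8 of the 12 libraries in turn, namely HT29 mock replicate 3, HT29 ERβ replicate 2 or 3, any SW480 mock replicate and SW480 ERβ replicate 2 or 3 (up to 0.154). The SW480 mock input was 1.09 at this bin, against 0.433 to 0.552 for the other inputs. With the replicate block the difference between the ERβ effects passed at both upstream runs (adjusted p = 0.0038 and 0.00165), and without it it did not (0.135 and 0.108).

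**Figure D4:**
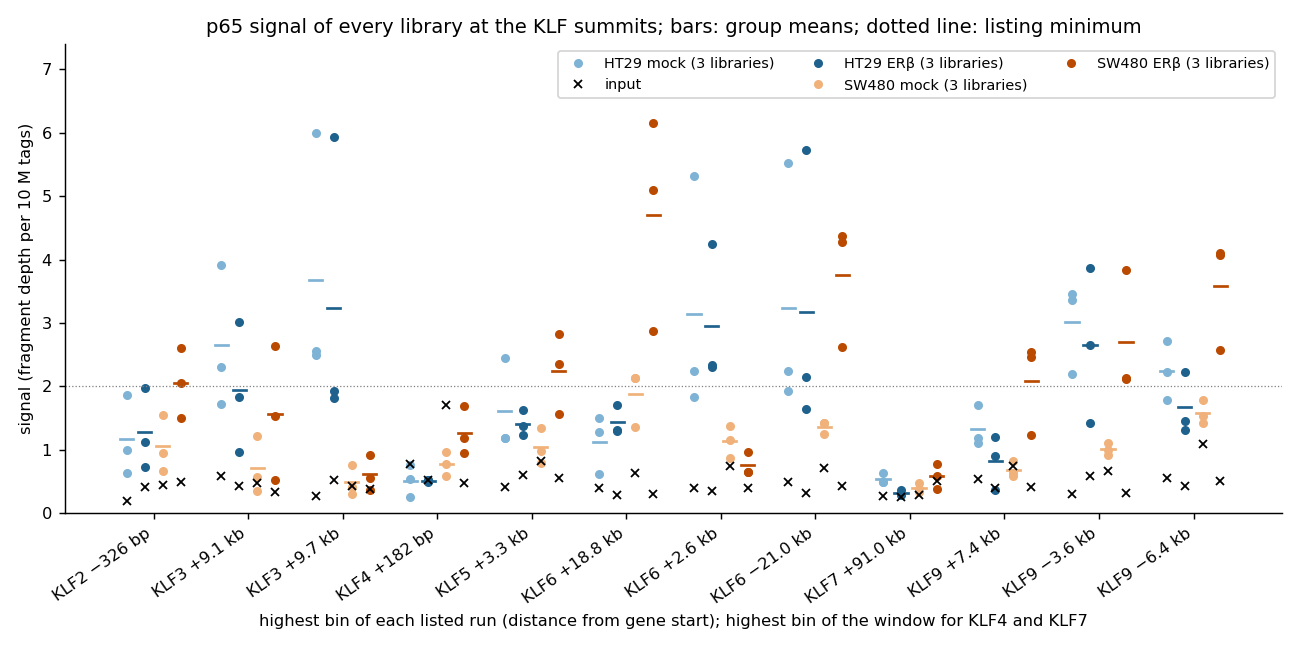
Signal of each ChIP library (points), group mean (bars) and input (crosses) at the highest bin of the 10 listed runs and, for KLF4 and KLF7, at the highest bin of the window; the dotted line is the listing minimum of 2. HT29 replicate 1 libraries reach 5.94 and 6.0 at KLF3 where the other HT29 libraries read 1.81 to 2.56, and SW480 ERβ reaches 6.15 downstream of KLF6.

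Over the 7 windows, 42 bins passed the filter for testing, a mean of the 12 ChIP libraries of at least 0.8 and at least 2 times the mean of the 4 inputs. They were 1 bin at KLF2, 8 at KLF3, 3 at KLF5, 18 at KLF6, 12 at KLF9 and none at KLF4 and KLF7. In HT29, ERβ minus mock gave 0 calls among them (0% of all tested bins were called in either direction), and 0 of the 42 had an unadjusted p below 0.05. With the replicate block there were 0 calls and 2 bins with an unadjusted p below 0.05, where 0.0287% of all tested bins were called higher and 0.431% lower. With scaling to an equal median there were also 0 (0.00820% of all tested bins higher). At none of the 42 did the 3 libraries of the groups stand apart without overlap, which occurred upward at 0.886% and downward at 3.22% of all tested bins. The median log2 difference was -0.08 over the 42 and -0.12 over all tested bins.

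In SW480, ERβ minus mock gave 11 bins called higher and 0 lower among the 42, and 16 higher with the replicate block. Over all tested bins 28.1% were called higher and 0.0123% lower (41.7% and 0.0328% with the block), so the KLF share was near that of the genome. All 3 ERβ libraries lay above all 3 mock libraries at 15 of the 42 and at 40.6% of all tested bins. The median log2 difference was 0.38 over the 42 and 0.44 over all tested bins. The count depends on the scaling. When libraries were scaled to an equal median over tested bins, 0 KLF bins were higher and 1, the internal KLF6 summit, was lower. Over the genome 3.50% were then higher and 0.672% lower. Such scaling takes out any shift that the tested bins share, and it moved their median from 0.44 to -0.03. Scaling to an equal background instead gave 10 KLF bins higher and 0 lower (27.2% and 0.0123% of all tested bins). The count also moved with single libraries, as did the share of all tested bins called higher. There were 20 calls without SW480 ERβ replicate 1 (58.7% of all tested bins), 8 without SW480 mock replicate 3 (21.3%) and 4 without SW480 mock replicate 1 (11.5%). There were 3 without SW480 mock replicate 2 (13.6%), SW480 ERβ replicate 2 (12.7%) or SW480 ERβ replicate 3 (13.3%).

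**Figure D5:**
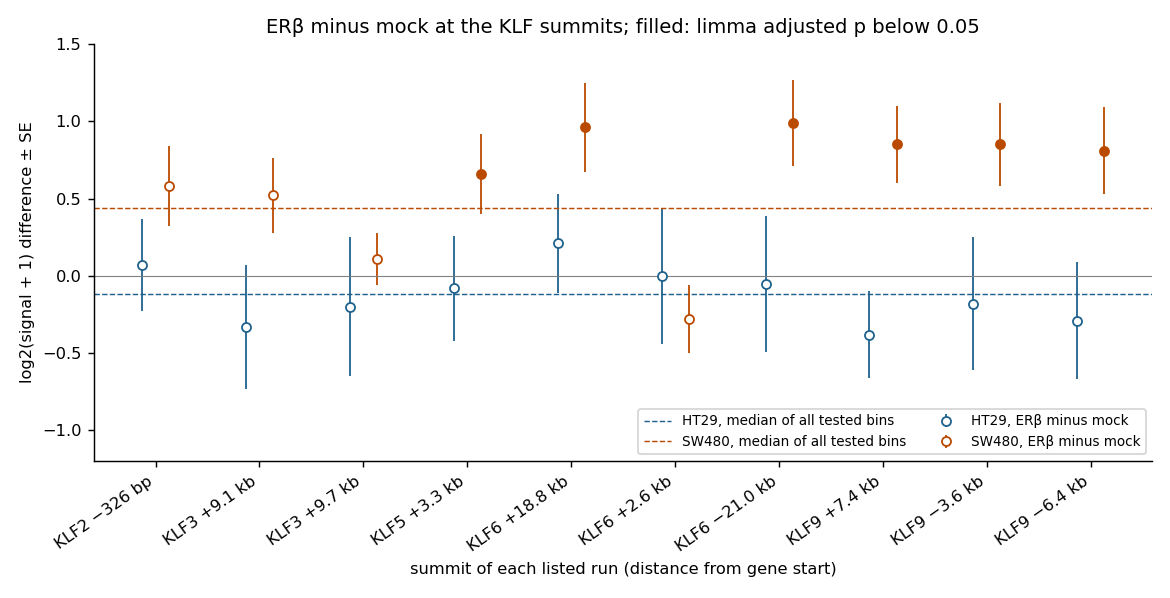
ERβ minus mock on the log2(signal + 1) scale with SE at the 10 KLF summits in HT29 (blue) and SW480 (orange), filled where the limma adjusted p is below 0.05; dashed lines give the median of all tested bins (-0.12 and 0.44). Filled points occur in SW480 only, at KLF5, at the downstream and upstream KLF6 summits and at the 3 KLF9 summits, and none of these passed after scaling to an equal median over tested bins.

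The difference between the 2 ERβ effects was called at 3 KLF bins, all at KLF9 and all higher in SW480, where 7.18% of all tested bins were called higher. With the block there were 12 higher and 0 lower (41.5% and 0.0164% of all tested bins), with scaling to an equal median 0 (1.23% higher and 0.103% lower), and with replicate 1 left out of both HT29 groups 5 (14.1% higher). Without a single library the count stayed at 3 (HT29 mock replicate 2 or 3 or HT29 ERβ replicate 3) or was 0 (HT29 ERβ replicate 2 or SW480 mock replicate 1), 1 (HT29 mock replicate 1, SW480 mock replicate 2, SW480 ERβ replicate 2 or 3), 2 (SW480 mock replicate 3), 5 (SW480 ERβ replicate 1) or 9 (HT29 ERβ replicate 1). Over all tested bins the share called higher ran from 2.40% without HT29 ERβ replicate 2 to 20.2% without SW480 ERβ replicate 1 and 26.2% without HT29 ERβ replicate 1.

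Between the mock lines, 13 of the 42 bins were called lower in SW480 and 0 higher, against 25.0% and 6.48% of all tested bins, and 7 of the 13 were neighbouring KLF3 bins at a single place. Without HT29 mock replicate 1 there were 8, and 12.5% of all tested bins were called lower. All SW480 mock libraries lay below all HT29 mock libraries at 18 of the 42 (35.5% of all tested bins) and above them at 1 (11.5%). Between the ERβ lines, 5 were called higher in SW480 and 6 lower, against 30.1% and 10.0% of all tested bins, and all SW480 libraries lay above all HT29 libraries at 9 of the 42 (30.8% of all tested bins) and below them at 7 (11.9%). The higher calls between the ERβ lines numbered 9 without HT29 ERβ replicate 1 (37.2% of all tested bins), 3 without HT29 ERβ replicate 2 (22.7%) or 3 (23.3%) and 2 without SW480 ERβ replicate 2 or 3 (up to 22.7%), and the lower calls ran from 4 without HT29 ERβ replicate 1 (5.79%) to 9 without HT29 mock replicate 1 (11.7%) or HT29 ERβ replicate 3 (10.9%). With all libraries, the higher ones were at KLF6 (2) and KLF9 (3) and the lower ones at KLF3 (2) and KLF6 (4). Scaling to an equal median gave 4 higher and 12 lower between the mock lines (22.6% and 21.9% of all tested bins) and 2 higher and 15 lower between the ERβ lines (25.9% and 23.4%). This scaling moved the median of all tested bins from -0.29 to 0.01 and from 0.30 to 0.02. The KLF3 intronic summit kept its direction and its calls between the lines under it, with log2 differences of -1.33 and -1.45, as did the downstream KLF6 summit between the ERβ lines, with 0.79. The mock comparison and the ERβ comparison between lines set groups against each other that share no library, but the spread in both was taken over all 12 ChIP libraries. Each also has compared groups in common with the ERβ comparisons within lines.

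The rest of the family was set beside the 7 genes without a test of any difference. Apart from KLF10 and SP1, values are given only where the highest bin of a gene was called, so those p are no independent evidence. Of 11 other KLF genes, 3 had listed bins, KLF10, KLF11 and KLF12, with 17 bins in all, and of 9 SP genes, the closest relatives of the KLF genes, 5 had listed bins, with bins shared by neighbouring genes counted for each. In SW480 mock, where the 7 genes had 0 listed bins, the other KLF genes had 5 and the SP genes 1. The highest bin of KLF12, a CtBP-binding repressor whose long gene gives a window of 2542 bins, was chr13:73772401-73772600 with means of 1.98 ± 0.521 in HT29 mock, 2.96 ± 0.386 in HT29 ERβ, 8.78 ± 3.89 in SW480 mock and 21.0 ± 7.02 in SW480 ERβ (SD, n = 3). It was higher in SW480 than in HT29 by 1.66 ± 0.39 in mock cells (adjusted p = 4.5e-04) and by 2.42 ± 0.39 in ERβ cells (adjusted p = 1.4e-07), and the ERβ effect in SW480 was 1.18 ± 0.34 (adjusted p = 0.00779). KLF12 lies on chromosome 13 like KLF5, in whose window the mean SW480 input was 2.49 and 2.38 times the level of its genome. The part of input level in these differences between lines was not tested, and no fit without single libraries is given for the other family genes. At KLF11, a Sin3A-binding relative of KLF9, the highest bin read 2.61 ± 0.432, 2.26 ± 0.239, 2.40 ± 1.89 and 8.88 ± 3.69 in the same order, with an ERβ effect in SW480 of 1.59 ± 0.33 (adjusted p = 2.2e-04) and a difference between the effects of 1.74 ± 0.52 (adjusted p = 0.0273). A bin between SP2 and SP6 read 0.954 ± 0.555, 1.15 ± 0.362, 1.28 ± 0.827 and 7.14 ± 2.71, with an ERβ effect in SW480 of 1.84 ± 0.30 (adjusted p = 6.7e-06). The highest SP5 bin had an ERβ effect of 0.76 ± 0.26 in SW480 (adjusted p = 0.0215), with means of 0.877 ± 0.444 in SW480 mock and 2.16 ± 0.576 in SW480 ERβ. The windows of SP2, SP6 and SP5 had listed bins in SW480 ERβ alone. The highest bins of KLF10 and SP1 were called in no comparison, with ERβ effects in SW480 of 0.52 ± 0.30 and 0.50 ± 0.30 (adjusted p = 0.169 and 0.191).

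Of the 9 KLF summits whose sequence was searched, 4 held an exact κB match in their 300 bases, at KLF2, at the internal and upstream KLF6 summits, and at the intronic KLF9 summit. The same was true of 44.3% of 300-base windows around all tested bins and of 9.43% of 35116 promoters of the same length from RefSeq. With at most 1 mismatch all 9 held a match, as did 87.8% of the tested windows and 65.6% of the promoters. The looser pattern was thus common in both sets. None held the AP-1 site TGACTCA on either strand, against 12.7% of tested windows and 4.95% of promoters, and none held the FOXA pattern TGTTTAC (6.58%) or the full palindromic estrogen response element (0.0492%). The RUNX pattern TGTGGT occurred in 1, the upstream KLF6 summit (19.9%), and CCNCNCCC in 6 (48.9%, and 56.2% of promoters). No κB match overlapped a match to another pattern. A match describes the letters only, and the lack of one says only that these letters are not in the window.

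The bins whose pattern over the 12 libraries was most like that of the KLF5 summit, among the highest bins of 7138 genes with a listed bin, were those of S100PBP (Pearson r = 0.951), HABP4 (0.948) and BMAL1 (0.936). For the upstream KLF6 summit they were those of MYBL2 (0.955), MRPS9 (0.955) and ZC3H12A (0.952). All points come from the same 12 libraries and share their differences in overall signal, and the values describe likeness only. KLF4 had no listed bin to compare.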

How the data were processed

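The 16 deposited coverage tracks, 1 per library, were used. Per the study's methods and processing notes, the authors mapped reads with STAR to the GRCh38 (hg38) genome, used uniquely mapped reads, and built the tracks with HOMER, whose versions are not given in the sources used here. Per the file headers and values, the deposited signal is tag density scaled to 10 M tags and 100-bp fragments, with stretches below 0.05 absent. Counts cannot be recovered, so the edgeR test of the study's methods was not run.

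Signal was averaged in 200-bp bins (numpy 2.4.6 and numba 0.67.0 under Python 3.11.15, with tables in pandas 2.3.3). Gene models were GENCODE release 44 and sequences were read with pysam 0.24.0 and samtools 1.23.1. Sequences are printed for 7 of the 10 summits, and that of 1 KLF9 summit was neither printed nor searched. Each bin was tested on log2(signal + 1) with limma 3.58.1 in R 4.3.3 (lmFit, eBayes with a mean trend), separately within each line for ERβ against mock and over all 12 ChIP libraries for lines and for the difference between ERβ effects, with Benjamini-Hochberg adjustment over 24389 bins and a threshold of 0.05. The script was tested on simulated data, in which bins varied independently and no library had a shift shared by its bins. That test does not cover shifts such as that of HT29 replicate 1. Figures used matplotlib 3.10.9.

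The members and the lists were chosen with earlier results of these data known. Every run of listed bins was described by its highest bin, members without one by their highest bin, and other family genes by counts, with values for at most 5 whose highest bin was called. The ERβ effect in SW480 was added for KLF10 and SP1, whose highest bins were not called.

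Replicate numbers were checked for pairing. Deviations of same-numbered mock and ERβ libraries over tested bins correlated at 0.482, 0.184 and 0.193 in HT29 and 0.264, 0.108 and 0.164 in SW480, all over the limit of 0.1. In HT29 replicates 2 and 3 also correlated across numbers (0.214 and 0.143), so only replicate 1 stood out as a pair there. By the limit, the replicate number as block was used as the paired alternative. This is read from the data, since the labels do not say what a number shares. Alternatives covered the pseudocount, filter, scaling, input, bin grid, listing limits, window, library weights, a joint fit and leaving out each library. Division by input over 100 kb and leaving out replicate 1 of both HT29 groups were added after the data were seen.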

Additional observations from a re-analysis of the deposited data

Results flagged for a closer look

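The ERβ effect differed between SW480 and HT29, by the interaction term of the limma fit, at 3 bins of KLF9, and these are given here because of that difference. The differences were 1.26 at chr9:70407001-70407200, 1.22 at chr9:70407201-70407400 and 1.23 at chr9:70412401-70412600 on the log2(signal + 1) scale. These are 3 of 42 tested KLF bins, where 7.18% of all tested bins were called, and the calls were lost in 4, 6 and 5 of the 12 fits that left out 1 library. The first 2 are neighbours and count as 1 place. Over all tested bins the median of the same difference was 0.57, and after scaling to an equal median over tested bins none of the 3 was called.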

How the results depend on the processing

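The number of listed bins moved with the listing limits and with single libraries. A group mean of at least 3 left 5 in HT29 mock, 3 in HT29 ERβ and 3 in SW480 ERβ, a mean of at least 1.5 gave 16 in SW480 ERβ, and at least 6 times input left 7 in HT29 mock and 5 in SW480 ERβ. Leaving out 1 library gave 5 to 14, 2 to 14, 0 to 0 and 6 to 14 for HT29 mock, HT29 ERβ, SW480 mock and SW480 ERβ. SW480 mock stayed at 0 under each listing alternative run. For called KLF bins, leaving out 1 library gave 0 to 0 for ERβ in HT29, 3 to 20 for ERβ in SW480, 8 to 15 between mock lines, 8 to 15 between ERβ lines and 0 to 9 for the difference between effects. Percentages are the shares of all tested bins called in the same direction. Scaling to an equal median gave 1 (0.672%) for ERβ in SW480 (lower, the opposite direction), 17 between ERβ lines (2 higher, 25.9%, and 15 lower, 23.4%) and 0 for the difference (1.23% higher and 0.103% lower). Subtracting input gave 19 (43.5%) for ERβ in SW480, 21 lower (30.3%) between mock lines and 10 (25.4%) for the difference. Array weights gave 20 (60.5%) for ERβ in SW480, 23 between ERβ lines (18 higher, 52.3%, and 5 lower, 9.30%) and 15 (53.0%) for the difference. A joint fit gave 5 (19.1%) for ERβ in SW480. A filter mean of at least 1.5, which leaves 13 KLF bins to test, gave 7 lower (27.6%) between mock lines, 6 between ERβ lines (2 higher, 32.4%, and 4 lower, 9.83%) and 0 for the difference (8.12% higher). The replicate block gave 12 (41.5%) for the difference, and leaving out replicate 1 of both HT29 groups gave 19 between ERβ lines (14 higher, 42.8%, and 5 lower, 8.04%) and 5 (14.1%) for the difference. The replicate block changed no call from passing to not passing. Over the 10 summits and 5 comparisons no log2 difference that passed in either fit changed sign. Counting leave-outs by their lowest and highest value, 646 summit values under the alternatives stayed on their side of the threshold, 32 lost and 42 gained a call, and the cause was not tested. Depth per library is not visible in the tracks, so a bin that was not called may still be bound.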
